A study of Homo sapiens with 6 samples.

Results

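This comparison sets parental CCRF-CEM cells after 4 h of camptothecin against the same cells after 2 h. CCRF-CEM is an established human T lymphoblast leukemia line. H3K27ac, acetylated lysine 27 of histone H3, was mapped by chromatin immunoprecipitation and sequencing. The members are the broad peaks of the 2 treated parental libraries, 2 of 6 in the series. In each, the 30000 peaks with the smallest p on chromosomes 1 to 22 and X were taken, of 178140 peaks on these chromosomes at 4 h and 177354 at 2 h. Both groups are wild-type cells that received 100 nM camptothecin, for 4 h in one and 2 h in the other. The other 4 libraries are cells with an SLFN11 gene knockout at 4 h and 2 h of camptothecin, knockout control cells and parental control cells, both controls with DMSO. The labels do not say whether the knockout line is 1 clone. Each group is 1 library, so the difference between the times has no replicate check and no test. One protocol label names only 4 h of treatment, while the sample labels give both times.

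H3K27ac is laid down by the acetyltransferases p300 and CBP and marks active promoters and enhancers, where acetylated nucleosomes accompany open chromatin and transcription. Camptothecin traps topoisomerase 1 on DNA, and replication forks that meet the trapped enzyme stall or break. SLFN11 is recruited to stressed forks and is known to sensitise cells to such drugs. Positions are given on hg19, 1-based. No gene is named at any position, since no annotation of that build was at hand. For the same reason neither the T lymphoblast label nor the knockout was checked at marker genes.

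The authors deposited 1 peak list per library, with a fold and a p for each peak that are their own values. In a broad peak these values are means over its length, as MACS2 writes them, so a long peak dilutes a strong core. Background pileup, solved from the deposited fold and p and read as a measure of relative depth, was 0.570 fragments per base at 4 h and 0.506 at 2 h. The weakest of the 30000 peaks had a −log10 p of 3.20 at 4 h and 3.43 at 2 h. These 30000, the matched peaks, covered 34.0 Mb at 4 h against 32.1 Mb at 2 h. Their median width was 1021 bp at 4 h against 938 bp at 2 h. The background pileup of the other libraries lay between 0.603 and 0.715, apart from 0.168 in knockout 4 h. Values of knockout 4 h are therefore of low depth wherever they appear.

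The strong marked sites were in place at both times, and the lists differed mainly among weak peaks. Of the 4 h peaks, 72.5% overlapped a matched 2 h peak by at least 1 bp (Wilson 95% interval 71.9 to 73.0). Of the 2 h peaks, 72.6% overlapped a matched 4 h peak (72.1 to 73.1). These intervals cover counting error over peaks only. Against all deposited peaks of the other time, 94.1% of the 4 h peaks and 93.8% of the 2 h peaks were found.

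The agreement went with strength. A peak leaves the matched list only past rank 30000, and strong peaks lie further from that limit. What part the limit has in the matched shares was not tested. Every peak ranked 1 to 5000 by p was found at the other time, in both directions. Among peaks ranked 5001 to 10000, 4 of the 4 h peaks and 5 of the 2 h peaks had no matched peak at the other time, and none lacked a deposited one. From rank 15001 to 20000 the matched share was 67.8% for 4 h peaks and 66.6% for 2 h peaks. From rank 20001 to 30000 it was 35.8% for 4 h peaks and 37.9% for 2 h peaks, while 84.5% and 84.3% of these had a deposited peak at the other time.

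**Figure D1:**
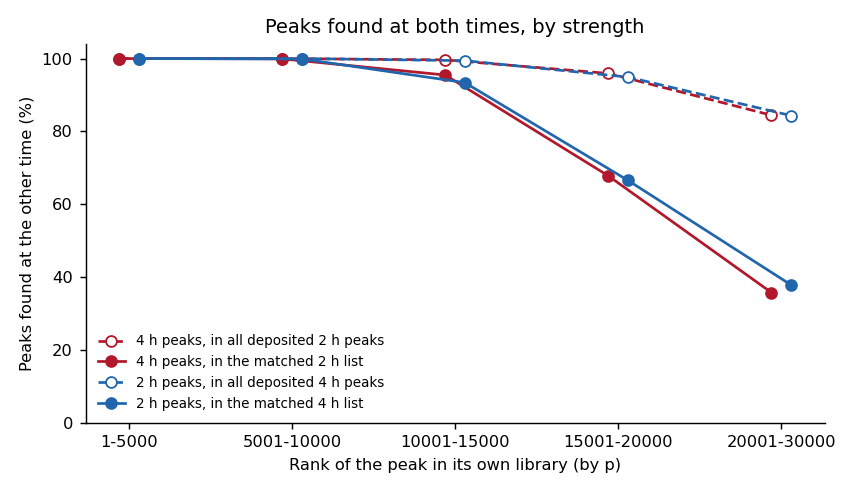
Percentage of peaks found at the other time (y axis) by the rank of the peak in its own library (x axis), for 4 h peaks in red and 2 h peaks in blue. Filled points use the matched peaks of the other time and open points all its deposited peaks. Both times run together, and the matched share drops to 35.8% for 4 h peaks and 37.9% for 2 h peaks past rank 20000.

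Among the 10 strongest regions kept at both times, the leading one lay on chromosome 2 from 33141145 to 33141828. Its fold was 13.3 at 4 h and 13.0 at 2 h, and it ranked 1 in all 6 libraries. None of these regions was checked for mapping artifacts. On chromosome X, the region from 123480223 to 123481146 had a fold of 10.1 at both times. A region on chromosome 12 from 11322939 to 11324435 had a fold of 10.3 at 4 h and 10.8 at 2 h. Its peaks covered 1472 bp at 4 h and 797 bp at 2 h. Others in this set lay close to a chromosome's first base. One was on chromosome 12 from 73850 to 75038, whose fold was 7.40 at both times. Wide domains were also found at both times. The widest 4 h peak, on chromosome 1 from 228759690 to 228772047, was 12358 bp long, and matched 2 h peaks covered 3265 bp of it. On chromosome 17, a domain from 43298548 to 43306725 was 8178 bp long at 4 h, of which 8057 bp were covered at 2 h. Another on chromosome 2 from 43357392 to 43364864 was 7473 bp long at 4 h, with 7162 bp covered at 2 h. Of the 10 widest 4 h peaks, 4 were covered over at least 90% of their length at 2 h, and of the 10 widest 2 h peaks, 7 were so covered at 4 h. None of them was uncovered at the other time.

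Peaks outside the shared set were narrow and weak. The 8264 peaks only in the 4 h list had a median width of 374 bp and a median fold of 3.19, against 361 bp and 3.37 for the 8220 only in the 2 h list. Shared peaks had a median width of 1223 bp at 4 h and 1172 bp at 2 h. Of the peaks only in the 4 h list, 21.1% lay within 10 kb of a shared peak, against 15.0% of those only in the 2 h list. Most of these sites held a deposited peak of some strength elsewhere in the series, but fewer held a matched one. Knockout control cells, which share no library with this comparison, had a deposited peak at 87.5% of the sites only in the 4 h list and at 87.9% of those only in the 2 h list. A matched knockout control peak lay at 29.7% and 25.4% of them. For shared peaks of either time these figures were 99.6% with a deposited peak and 90.2% with a matched one.

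In 10 kb windows tiled along the genome, gain and loss were close to even. Of 38313 windows with a matched peak at either time, 7720 were covered at 4 h and not at 2 h (20.1%), 7872 at 2 h and not at 4 h (20.5%), and 22721 at both. With 30 Mb of peaks taken from each library in place of equal numbers, 4717 windows were gained and 7127 lost, so the balance depends on how many peaks are taken. The median covered length was 358 bp in gained and 353.5 bp in lost windows. A weaker deposited 2 h peak lay in 88.0% of the gained windows, and a weaker deposited 4 h peak in 86.3% of the lost ones. Deposited peaks are many, 177354 at 2 h and 178140 at 4 h. The share of all windows that hold one is not given here, so these percentages have no base rate beside them.

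Covered length tilted towards 4 h. At least 1000 bp more was covered at 4 h in 2045 windows (5.34% of all), and at least 1000 bp less in 1239 (3.23%). At 30 Mb from each library these counts were 1366 and 1174, so the split was nearer to even at equal cover. Over 15975 regions with matched peaks at both times, the median ratio of covered length at 4 h over 2 h was 1.01 (95% interval by order statistics over regions 1.01 to 1.01). The ratio was above 1 in 57.0% of these regions and below 1 in 37.0%. It was at least 2 in 229 regions and at most 0.5 in 98.

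The windows with the largest changes in covered length were marked at both times. All 10 named gains and all 10 named losses had a deposited peak in all 6 libraries. The share of all windows with one in all 6 is not given here, so these counts too have no base rate beside them. In the gains, the strongest peak ranked from 14297 to 28675 at 4 h and from 13971 to 75045 at 2 h, with a fold no higher than 3.08 at either time. In 8 of the gains no 2 h peak was among the 30000, though deposited 2 h peaks covered 3343 to 5143 bp.

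The 2 largest gains were neighbouring windows on chromosome 1 from 228760001 to 228780000. Matched peaks covered 10000 and 9025 bp at 4 h, against 3265 and 3803 bp at 2 h. All deposited 2 h peaks together covered 7275 and 8210 bp of them. Next came chromosome 3 from 13380001 to 13390000, where 1 peak covered 4975 bp at 4 h. The 2 h list held a peak of 4819 bp there at rank 34013. Chromosome 20 from 37350001 to 37360000 had 4746 bp of matched peaks at 4 h, against 0 bp at 2 h. Its strongest peak ranked 17409 at 4 h and 51571 at 2 h, with a fold of 3.06 at 4 h and 2.39 at 2 h. Among the 10 gains, ranks lay furthest apart on chromosome 4 from 200001 to 210000. There the strongest peak ranked 20800 at 4 h and 75045 at 2 h, over 3947 bp of deposited peaks at 4 h and 4578 bp at 2 h.

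The largest loss of covered length was on chromosome 9 from 124720001 to 124730000, with 0 bp of matched peaks at 4 h, against 3999 bp at 2 h. Its strongest 4 h peak ranked 30297, next to the limit. On chromosome 5 from 17580001 to 17590000 matched peaks held 0 bp at 4 h, against 3841 bp at 2 h, with best ranks of 56225 and 16221. The other 4 libraries had no matched peak in that window, though each had deposited peaks over 2765 to 5130 bp. At chromosome 17 from 76710001 to 76720000, 0 bp at 4 h stood against 3493 bp at 2 h, where a peak of 5445 bp ranked 10400. A window on chromosome 8 from 86560001 to 86570000 had 320 bp at 4 h, against 3693 bp at 2 h, although its strongest 4 h peak, 320 bp wide, ranked 14378 and its strongest 2 h peak 19736. On chromosome 16 from 18500001 to 18510000, 0 bp at 4 h stood against 3463 bp at 2 h, and the strongest peak ranked 51343 at 4 h and 25713 at 2 h. Deposited 4 h peaks covered 3493 bp there. Whether the windows on chromosomes 1 and 8 lie in repeated sequence was not checked.

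Few strong peaks appeared or vanished outright. Among the 15000 strongest 4 h peaks, 18 had no deposited 2 h peak of any strength (0.12%). Among the 15000 strongest 2 h peaks, 29 had no deposited 4 h peak (0.193%). The best rank among these 47 was 10555. They were short, with a median width of 275 bp for the 4 h peaks and 328 bp for the 2 h peaks.

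The strongest peak present at 4 h and absent at 2 h lay on chromosome 18 from 55019787 to 55019999, with rank 10555 and a fold of 6.59. Parental control had a peak there at rank 16908 and knockout control at rank 35277. A second, on chromosome 2 from 69496818 to 69497122, ranked 12269 at 4 h with a fold of 5.50. Knockout 2 h and knockout control had it at ranks 14518 and 13069, with folds of 5.33 and 5.59, and parental control at 28060 with 3.08. A peak on chromosome 9 from 5329056 to 5329325 ranked 14247 at 4 h and was weak in parental control, at rank 64444. Of these 18 sites, 17 had a deposited peak in knockout control and 17 in parental control. A matched peak lay at 9 of them in knockout control and at 11 in knockout 2 h. The same shares over all 15000 strong peaks are not given here, so these counts have no base rate beside them.

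Among peaks present at 2 h and absent at 4 h, the strongest lay on chromosome 8 from 10625269 to 10625745, with rank 11514 and a fold of 5.57. The parental control rank was 13828. By contrast, the peak on chromosome 2 from 57342737 to 57343086 ranked 11938 at 2 h and only 119494 in parental control, so it was strong at 2 h alone among the parental libraries. On chromosome X, the peak from 38207819 to 38208065 ranked 12651 at 2 h. It had no deposited peak at 4 h, in parental control or in knockout 2 h, and rank 63768 in knockout control. Chromosome 3 from 67038289 to 67039106, 818 bp wide, ranked 13108 at 2 h and had no peak at 4 h or in parental control. Knockout 4 h ranked it 8462. Of these 29 sites, 25 had a deposited peak in knockout control and 21 in parental control. A matched peak lay at only 6 of them in knockout control and at 5 in knockout 2 h, again without a base rate.

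A finer view came from ranking the same regions at both times. The 15000 strongest peaks of either time merged into 16540 regions, of median width 1346 bp. At each time a region's rank came from the smallest p of its deposited peaks, where rank 1 is the strongest. The median shift between the times was 957 places, and 51.5% of regions moved by at most 1000. At 4 h, 784 regions ranked higher by more than 3000 places (4.74%) and 833 ranked lower (5.04%). Together they were 9.78% of regions. For knockout 2 h against knockout control, with regions built in the same way from those libraries, 603 ranked higher and 614 lower, 7.53% of 16152 regions. No test sets these shares apart.

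The regions that moved were of middle to low strength. Their median mean rank was 13150 for those higher and 13214 for those lower at 4 h, against 8273 for all regions. With regions split by mean rank into 5 equal groups, 2 ranked higher and 5 lower by more than 3000 in the strongest group. In the weakest group the counts were 309 and 346. The rank scale, from 1 to 16540, limits such moves at both of its ends. The median of the mean ranks was 1686.5 in the strongest group and 14595.8 in the weakest. Regions with mean ranks near 1 cannot move by more than 3000. What part the scale has in these counts was not tested.

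**Figure D2:**
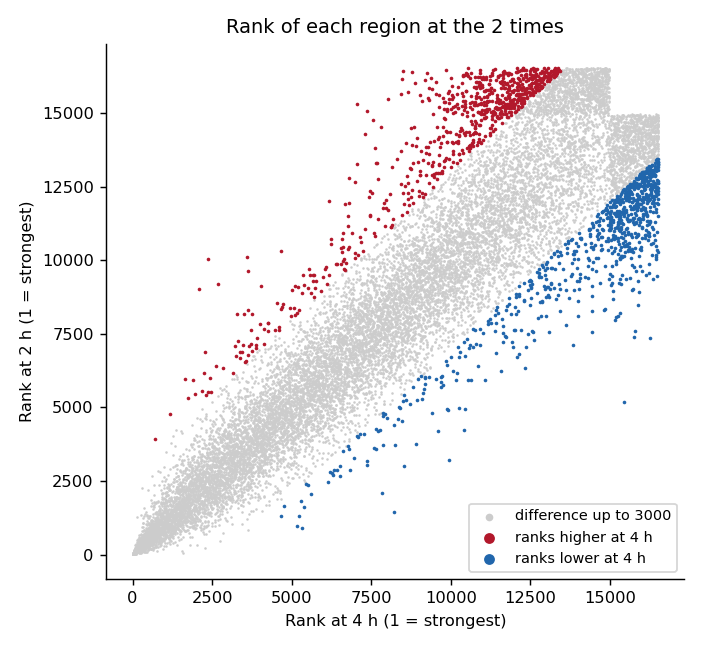
Rank of each of 16540 regions at 4 h (x axis) and at 2 h (y axis), with rank 1 the strongest. Red points, 784 regions, ranked higher at 4 h by more than 3000 places, and blue points, 833 regions, ranked lower. The spread widens towards weak regions, and the empty corner past rank 15000 at both times comes from how regions were built.

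The 10 largest rank differences upwards had ranks of 2356 to 8862 at 4 h, against 10059 to 16438 at 2 h. The 10 largest downwards had 15158 to 16461 at 4 h, against 5185 to 9478 at 2 h. The widest rank difference upwards was on chromosome 6 from 34855483 to 34855928, with rank 7064 at 4 h and 15316 at 2 h and a fold of 5.33 at 4 h and 3.39 at 2 h. In parental control it ranked 8691, near its 4 h rank. On chromosome 13 the region from 113916988 to 113917429 ranked 8489 at 4 h and 16438 at 2 h, with a fold of 7.53 at 4 h and 2.62 at 2 h. Parental control ranked it 16123 and knockout control 16406. Knockout 2 h lay between, at rank 13971 with a fold of 4.95. Chromosome 22 from 36234356 to 36234663 ranked 8478 at 4 h, against 16167 at 2 h, and 15604, 15948 and 15613 in knockout 2 h, knockout control and parental control. Its peak was 308 bp wide at 4 h and 286 bp at 2 h. Chromosome 6 from 128271828 to 128272113 differed from these in the knockout. It ranked 8777 at 4 h, against 16406 at 2 h, with 12687 in parental control, and 7495 and 8493 in knockout 2 h and control.

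The widest difference downwards was on chromosome 10 from 6537115 to 6537461, with rank 15429 at 4 h and 5185 at 2 h. Its fold was 3.52 at 4 h and 8.51 at 2 h. Parental control ranked it 12977 and knockout control 14095, both nearer to its 4 h rank. Chromosome X from 27460779 to 27461136 ranked 16254 at 4 h and 7360 at 2 h, and 14568 in parental control. A region on chromosome 17 from 36442460 to 36442841 ranked 15786 at 4 h and 7586 at 2 h, against 14755 in parental control and 15001 and 15162 in knockout 2 h and control. These 3 sites thus ranked highest at 2 h among the parental libraries. On chromosome 1, the region from 246862080 to 246862357 ranked 9478 at 2 h and between 16142 and 16461 in each of the other 5 libraries, with a fold of 2.23 at 4 h and 6.61 at 2 h. By contrast, chromosome 15 from 66386070 to 66386933 ranked 6803 with DMSO, 8220 at 2 h and 15311 at 4 h. Since these regions were chosen by their difference between the 2 treated times, an extreme value at 2 h enters both steps, and no share of regions that go on or turn back is given.

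Rank moved together with peak extent. Of the 10 largest differences upwards the strongest peak was narrower at 4 h in 8, and of the 10 largest downwards it was wider at 4 h in 9. Where a region ranked higher at 4 h by more than 3000, its strongest peak was narrower at 4 h than at 2 h in 73.8% of cases. Where it ranked lower at 4 h, that peak was wider at 4 h in 74.8%, against 59.2% wider over all regions. In the chromosome 10 region from 6537115 the strongest peak was 1962 bp wide at 4 h and 347 bp at 2 h. How much of the rank difference goes back to peak extent was not tested. Among the 12680 regions whose strongest peaks differed by at most 1.25-fold in width, 393 ranked higher and 364 lower, 3.10% and 2.87%. Among the other 3860, 391 ranked higher and 469 lower, 10.1% and 12.2%. The limit of 1.25-fold was chosen after the data were seen.

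**Figure D3:**
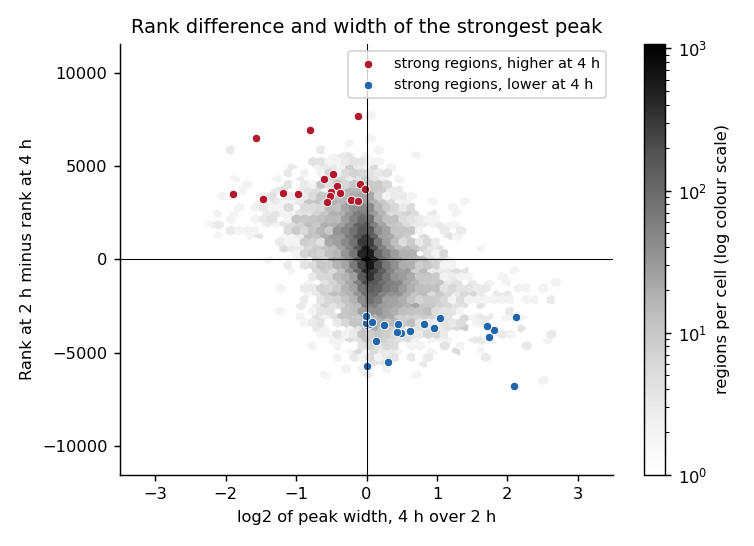
Rank at 2 h minus rank at 4 h (y axis) against the log2 ratio of the width of the strongest peak, 4 h over 2 h (x axis), in 16493 regions with a peak at both times. Grey cells count regions on a log colour scale, red points are the 18 strong regions that ranked higher at 4 h and blue points the 21 that ranked lower. All 18 red points lie left of 0, where the 4 h peak is the narrower one.

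Among 3383 regions within the 3000 strongest at either time, 18 ranked higher and 21 lower at 4 h by more than 3000 places. The strongest peak was narrower at 4 h in all 18 and wider at 4 h in 19 of the 21. One example is chromosome 9 from 127420496 to 127421831, where a peak of 482 bp ranked 710 at 4 h and a peak of 1336 bp ranked 3928 at 2 h. Another is chromosome 17 from 2117483 to 2119493, where a peak of 2011 bp ranked 8213 at 4 h and one of 469 bp ranked 1437 at 2 h. That region ranked 8581 in parental control, and 2219 and 2687 in knockout 2 h and control. The widths were within 1.25-fold in 5 of the 18 and 9 of the 21. These 14 regions were singled out after their values were seen, and they are described one by one because their ranks compare peaks of like length. Their ranks by p and by fold differ, however. With regions ranked by fold, only the regions on chromosome 1 from 236260229, chromosome 7 from 155532317 and chromosome 10 from 73517042 still moved by more than 3000 places. The other 11 moved by 503 to 2909 in the same direction.

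Of the 5 that ranked higher at 4 h, the one that moved most lay on chromosome 1 from 236260229 to 236260849. It had rank 2356 and a fold of 11.2 at 4 h, against rank 10059 and a fold of 6.35 at 2 h, with peaks of 561 and 611 bp. Parental control ranked it 9016, and knockout 2 h and control ranked it 11383 and 9128. Only the 4 h parental library placed it among the 5000 strongest, and knockout 4 h ranked it 6614. The region on chromosome 12 from 38710358 to 38711127 ranked 1906 at 4 h, against 5946 at 2 h, with 4568 in parental control. On chromosome 17, positions 78518506 to 78519534 ranked 2622 at 4 h, against 6405 at 2 h, with 4884 in parental control. Like these, chromosome 19 from 23432245 to 23433355 ranked 2361 at 4 h, against 5526 at 2 h, with 3728 in parental control. The fifth region, on chromosome 15 from 48469874 to 48470816, ranked 2322 at 4 h, against 5437 at 2 h, with 3059 in parental control.

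Among the 9 that ranked lower at 4 h, chromosome 10 from 6707218 to 6707986 ranked 673 with DMSO, 2994 at 2 h and 8523 at 4 h. Its fold was 12.0 in the control, 9.61 at 2 h and 6.97 at 4 h. Knockout 2 h and control had ranks of 3113 and 2978 there, and knockout 4 h had 1808. Chromosome 3 from 155270876 to 155271460 ranked 918 with DMSO, 2771 at 2 h and 6250 at 4 h, while its fold was 8.29, 8.31 and 6.44 in the same order. For chromosome 5 from 36055097 to 36055850 rank and fold went apart. Its rank was 1594 with DMSO, 2393 at 2 h and 5447 at 4 h, and its fold 7.26, 8.64 and 7.92 in that order.

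The largest difference among the 9 was on chromosome 7 from 155532317 to 155532866, where a peak of 539 bp ranked 7838 at 4 h and one of 538 bp ranked 2101 at 2 h. Its rank was 4770 in parental control, close to the 4375 and 4573 of knockout 2 h and control. On chromosome 5 from 4532541 to 4533091 the rank was 5311 at 4 h and 917 at 2 h, with 1272 in parental control. Chromosome 1 from 204476603 to 204477531 ranked 6407 at 4 h, against 2883 at 2 h, with 5283 in parental control, and was weaker in knockout 2 h and control, at 10109 and 10704. Chromosome 13 from 30968344 to 30969710 ranked 5598 at 4 h, against 2071 at 2 h, with 2538 in parental control. The remaining 2, both on chromosome 10, start at 73517042 and 94516611 and ranked 6205 and 4678 at 4 h, against 2819 and 1301 at 2 h.

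**Figure D4:**
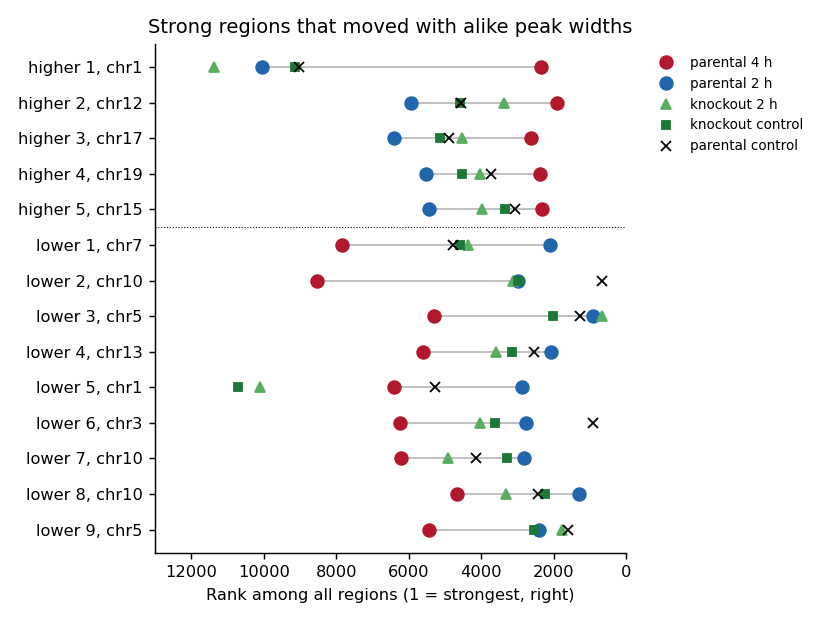
Rank among 16540 regions (x axis, strongest at the right) of the 14 strong regions whose strongest peaks had alike widths at both times, 5 higher and 9 lower at 4 h. Grey lines join parental 4 h and parental 2 h, and the other symbols are parental control, knockout 2 h and knockout control. The first row, on chromosome 1, stands at 2356 at 4 h and between 9016 and 11383 in the other 4 libraries drawn.

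Chromosome 19 had the highest median rank difference, in a comparison added after the data were seen. Over its 994 regions the median of rank at 2 h minus rank at 4 h was 189 places towards 4 h (95% interval by order statistics over regions 118 to 290), against a median of 4 over the other chromosomes. Of its regions, 52 ranked higher at 4 h by more than 3000 and 20 lower, 5.23% and 2.01%, where all regions gave 4.74% and 5.04%. Among regions alike in width its median was 204, and with regions ranked by fold it was 104.5. The next medians were 65.5 on chromosome 13, 62 on chromosome 9 and 60 on chromosome 20, and the lowest were −79 on chromosome 7 and −73 on chromosome 21. In the same chromosome 19 regions, knockout 2 h against knockout control gave a median of 63.5. The median width of the chromosome 19 regions was 1498 bp. Over all chromosomes, regions of 843 to 1181 bp had a median difference of 103.5, those of 1182 to 1509 bp 123 and those of 1510 to 1937 bp 57. For the narrowest regions, of 207 to 842 bp, it was −368.5, and for the widest, of 1938 to 10059 bp, −136. What part region width has in the chromosome 19 value was not tested. Neighbouring regions and 1 pair of libraries stand behind each median, so the intervals show counting error only.

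**Figure D5:**
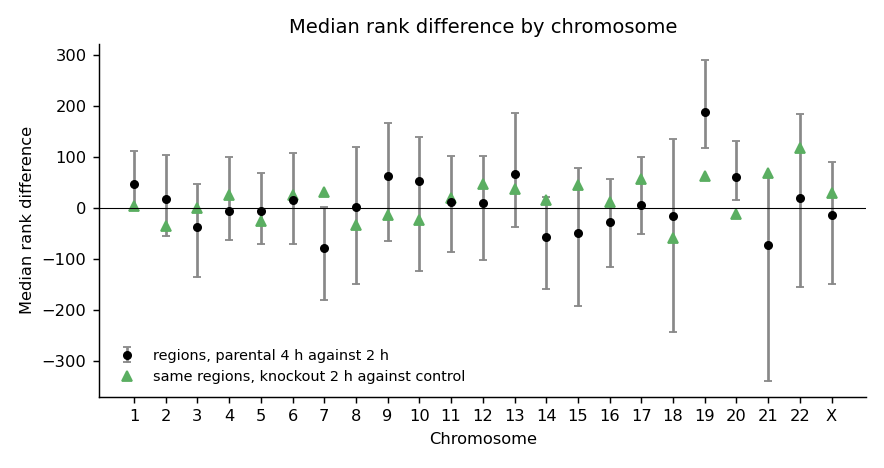
Median of rank at 2 h minus rank at 4 h for the regions of each chromosome (black points, with 95% intervals by order statistics over regions), where values above 0 mean a higher rank at 4 h. Green triangles give the median for the same regions in knockout 2 h against knockout control. Chromosome 19 has the highest median, 189.

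Neighbouring regions were also read together, in a comparison added after the data were seen. Stitching regions within 12500 bp gave 192 clusters of at least 4 regions, 943 regions in all. Their regions had a median difference of −200 places, towards a lower rank at 4 h, against 38 in regions that stood alone. The same cluster regions had a median of −164 in knockout 4 h against 2 h, where knockout 4 h is of low depth, and −52 in knockout 2 h against knockout control. The median was below 0 in 117 clusters (60.9%) and above 0 in 75. All regions ranked lower at 4 h in 17 clusters and higher in 3. This tilt turned round to a median of 12 when regions were ranked by fold, and with stitching at 25000 bp it was −48.5, so its direction depends on how regions are ranked.

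The cluster with the largest median difference towards a lower rank at 4 h lay on chromosome 2 from 136874005 to 136894070, where all 4 regions ranked lower at 4 h, with a median difference of −3851.5. Its leading region, from 136874005 to 136877115, ranked 2946 at 4 h and 1762 at 2 h with peaks of 3111 and 3053 bp. The other 3 ranked 12314, 15752 and 7686 at 4 h, against 6329, 7378 and 5968 at 2 h, and there the strongest peaks were 3082, 2550 and 1443 bp wide at 4 h and 392, 381 and 458 bp at 2 h. On chromosome 3, the 4 regions from 18007282 to 18024995 ranked 12218, 11548, 15863 and 8291 at 4 h, against 7614, 10811, 12457 and 6256 at 2 h. Their widths were closer, for example 2374 bp at 4 h and 2287 bp at 2 h in the last. Knockout 2 h and control ranked this cluster higher, with medians of 4824 and 4760. Another cluster, on chromosome 21 from 36378275 to 36399783, also ranked lower at 4 h in all 4 regions. Its first ranked 13098 at 4 h and 11278 at 2 h, and its last 7215 and 7166. The cluster on chromosome 12 from 51762194 to 51801022 ranked lower at 4 h in all 5 regions, with a median difference of −2453. On chromosome 6 from 26520715 to 26551683 it was 3 of 4 regions, with a median difference of −2498.5. One region there, from 26537479 to 26539694, went the other way, with rank 4187 at 4 h and 5138 at 2 h.

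Clusters towards 4 h were fewer. On chromosome 6 from 44191106 to 44233516 all 5 regions ranked higher at 4 h, by 426 to 1978 places. Their median rank was 9019 with DMSO, 7258 at 2 h and 5684 at 4 h. One member did not keep to that order, the region from 44213867 to 44215821, which ranked 4019 with DMSO, 7020 at 2 h and 5684 at 4 h. The knockout medians there were 8830 in the control, 7120 at 2 h and 5665 at 4 h, the last from the library of low depth. The cluster on chromosome 9 from 129158834 to 129186406 had the largest median difference towards 4 h, 3595, with 3 of 4 regions higher at 4 h. Its median rank was 12705.5 with DMSO, 15421.5 at 2 h and 11826.5 at 4 h. In those 3 regions the strongest peak was wider at 2 h, with 2051, 2768 and 1497 bp, against 620, 1736 and 843 bp at 4 h. Movement in both directions within a cluster was seen on chromosome 12 from 56109725 to 56139320. Its leading region ranked 3617 at 4 h and 1793 at 2 h, while the other 3 ranked higher at 4 h. The largest cluster of all, on chromosome X from 114959724 to 115005259, held 16 regions, of which 15 ranked higher at 4 h with a median difference of 462 places. Whether that stretch is repeated sequence was not checked. At the cluster on chromosome 14 from 106572955 to 106676367, 11 of 14 regions ranked lower at 4 h, with a median difference of −951.5. On chromosome X from 123480223 to 123539284, which holds one of the strongest kept regions, 7 of 9 regions ranked lower at 4 h with a median difference of −2115, while that strong region itself ranked 4 at 4 h and 3 at 2 h.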

How the data were processed

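Broad peaks of H3K27ac were analysed for the 2 treated parental libraries, with the other 4 used only for values set beside theirs. Per the submitters' processing notes, the authors used MACS2 2.1.2, Picard 2.9.2, SAMtools 1.8, BWA 0.7.17, Trimmomatic 0.39 and Trim Galore 0.6.2, with hg19. For settings, and for the control behind the peak calls, nothing is given in the sources used here. The deposited fold is a ratio of pileup over local background, beside deposited −log10 p and −log10 q. The authors' score is the −log10 q times 10, without decimals, and only served as a check. Reads were not analysed, so depth was taken from background pileup.

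Peaks were ranked by p, ties by fold and position, and 30000 were kept per library. Python 3.11.15, numpy 2.4.6, pandas 2.3.3 and scipy 1.17.1 were used. The counts of windows and of region ranks were tried on lists simulated from the 2 h list. There p was altered or peaks were removed, while peak boundaries stayed fixed, so changes of peak width were not covered. With 1 library a group, no test between groups was run. Named sites are the 10 largest differences each way, in cover, rank and presence, the 10 strongest and the 10 widest, and others are marked as chosen afterwards. Ties to gene lists were not run without an hg19 annotation. Members and comparisons were chosen with earlier results of these data known. Alternatives varied the number and ranking of peaks, the cover and size of windows, overlap and merging.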

Additional observations from a re-analysis of the deposited data

Results flagged for a closer look

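On chromosome 19 the median rank difference of regions was 189 places towards 4 h in parental cells. The same difference, 4 h against 2 h, was −311.5 in knockout cells. It is given here for the opposite signs, and the difference between the genotypes was not tested. Knockout 4 h has a background pileup of 0.168 fragments per base, against 0.715 in knockout 2 h, and what part this depth has in the value was not tested.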

How the results depend on the processing

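No paired analysis was possible because each group is 1 library, and for the same reason no replicate could be left out. Counts of windows followed the peaks taken. Gained and lost windows numbered 1657 and 1613 with 15000 peaks per library, 15307 and 15858 with 50000, 1285 and 994 where −log10 q had to reach 5, 3605 and 2938 where 500 bp had to be covered, and 26802 and 27816 with all deposited peaks. With 30 Mb per library 4717 were gained, and 7127 lost. Longer and shorter windows at 4 h numbered 830 and 365 with 15000 peaks, 3649 and 2667 with 50000, 710 and 310 at the q limit, and 336 and 130 for differences of at least 2000 bp.

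The shared percentage of 4 h and 2 h peaks was 89.4 and 89.6 with 15000 peaks, 61.9 and 62.0 with 50000, 68.4 and 68.5 with peaks ranked by fold, and 91.0 and 92.8 at the q limit. With 30 Mb it was 79.95 for 4 h peaks, and where 0.5 of each peak had to overlap it was 66.96 in both directions. Strong 4 h and 2 h peaks with none at the other time numbered 0 and 0 among the 10000 strongest, 222 and 283 among 20000, and 125 and 176 with peaks ranked by fold.

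Regions ranking higher and lower at 4 h numbered 124 and 117 with 10000 peaks merged, 115 and 126 past 5000 places, and 1536 and 1636 when ranked by fold. Chosen after seeing the data, the 5000 strongest regions gave 59 and 57, those of at least 1000 bp 357 and 252, and those alike in width 393 and 364. The counts past 5000 places and by fold are over the same 16540 regions. The other settings hold fewer regions, and with 10000 peaks merged the rank scale is shorter too. Their counts are therefore not shares of a common total. The median width ratio was 1.02 with 15000 peaks. The cluster median was 12 by fold, the opposite sign, and −48.5 with stitching at 25000 bp, and the chromosome 19 median 104.5 by fold. The cause of these moves was not tested. Named windows kept their difference within 25% in 22 of 100 comparisons, moved in 71 and reversed in 7. Of the 20, 19 had a difference of 0 bp at the q limit, 17 with 15000 peaks, 10 by fold and 4 at 30 Mb. With 50000 peaks the differences, 4 h minus 2 h, were −43 bp on chromosome 7 from 142560001, −78 on chromosome 5 from 1970001, 357 on chromosome 2 from 87620001 and 17 on chromosome 22 from 42940001. The last was 137 by fold, and chromosome 8 from 86560001 gave 320 both by fold and with 15000 peaks. Named regions moved by over 25% in 63 of 232 comparisons, with no change of sign. Of 58 comparisons in each setting, 43 moved by fold, 19 with 10000 peaks merged and 1 with peaks within 1000 bp merged. With ranks from the 50000 strongest peaks 0 moved. That setting could change little, since a region's rank comes from its strongest peak.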
